A study of Mus musculus with 5 samples.

Results

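The cytosolic ribosomal protein genes are described here in CD4 T cells of the mouse colon, by the 63 genes whose only platform symbol starts with Rpl or Rps followed by a digit, or is Rplp0, Rplp1, Rplp2 or Rpsa. Kinases of the Rps6k family and symbols marked as pseudogenes were left out, and where a gene had several probe sets the one brightest on average across the 5 arrays stood for it. The 63 members are drawn from 19937 genes with a symbol of their own in the table. Of these, 38 carry a large-subunit name and 25 a small-subunit name, and 9 are paralogs or genes that carry the name without being a standard subunit protein. RefSeq lists 89 protein-coding genes that meet the naming rule, of which 62 were measured. Another 20 share their probe sets with other symbols and 7 have no probe set under their own name, and these 27 were not analysed here. Rps4l, the remaining member, is listed there as a transcribed pseudogene.

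Cells positive for CD45, CD3 and CD4 with low surface CD44 had been sorted from the lamina propria, the connective tissue beneath the colon epithelium. Conditional mice (CD4cre/Cnb1flox, 3 arrays) carry a floxed Cnb1 gene and a Cre recombinase under CD4 control. Control mice (2 arrays) are labelled both WT and CD4neg/Cnb1flox, and the latter names the same floxed gene without Cre. Cnb1, gene symbol Ppp3r1, encodes the regulatory subunit of calcineurin, the calcium-dependent phosphatase that activates NFAT factors, and the study asked whether it restrains Th1 and JAK/STAT genes. By the CD4neg/Cnb1flox part of the control label, all mice share the floxed allele. Cre under CD4 control acts in every cell that expresses or has expressed CD4. The sources used here do not give the mice's age or sex, or how many mice went into each array. According to the series, the work comprised 3 experiments, each with 3 to 5 mice in a group. No label ties an array to a mouse, so the p-values reflect only how these arrays scatter, and that scatter may be technical.

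The ribosome makes all cellular protein and consists of a small subunit, which decodes the mRNA, and a large subunit, which joins the amino acids. Its protein genes are among the most strongly transcribed genes of a cell, and their mRNAs begin with a tract of pyrimidines, the 5′ terminal oligopyrimidine (TOP) motif, through which the kinase complex mTORC1 and the protein LARP1 set how much of them is translated. Naive T cells hold a translation machinery that is held back until activation through the T cell receptor, when ribosome production and translation rise.

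The starts of 9 members are shown because the tract at the first base is the feature through which this family is regulated together. Sequences are from RefSeq (GRCm38.p6), 30 bases with 15 before and 15 from the annotated start, 5′ to 3′ on the gene's strand. Capitals mark a C within 3 bases of the start followed by at least 4 pyrimidines. The first 6 hold the tract, and Rps28, Rpl5 and Rps3 have none at the annotated start.
Rps6: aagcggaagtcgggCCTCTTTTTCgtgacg
Rpl38: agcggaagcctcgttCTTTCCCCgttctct
Rpl28: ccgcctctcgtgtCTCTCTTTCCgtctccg
Rpl14: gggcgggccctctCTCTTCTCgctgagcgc
Rps15a: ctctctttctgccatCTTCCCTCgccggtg
Rpl12: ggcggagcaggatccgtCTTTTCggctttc
Rps28: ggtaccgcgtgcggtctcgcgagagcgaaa
Rpl5: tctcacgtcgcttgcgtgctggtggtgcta
Rps3: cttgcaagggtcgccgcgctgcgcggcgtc
The windows lie at chr4:86857353-86857382 (minus strand) for Rps6, chr11:114668565-114668594 (plus) for Rpl38, chr7:4792950-4792979 (plus) for Rpl28, chr9:120571502-120571531 (plus) for Rpl14 and chr7:118116133-118116162 (minus) for Rps15a. Those of Rpl12, Rps28, Rpl5 and Rps3 lie at chr2:32961697-32961726 (plus), chr17:33824548-33824577 (minus), chr5:107900513-107900542 (plus) and chr7:99483695-99483724 (minus). Each spans the annotated start of the gene's first exon.

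The values are log2 signals, with a median per array of 7.12 to 7.23. Ppp3r1 itself read 8.64, 8.83 and 8.77 in conditional replicates 1, 2 and 3 and 8.99 and 8.60 in control replicates 1 and 2, a difference of -0.052 (limma, adjusted p = 0.927). Whether its probe set lies outside the deleted part was not tested. Control replicate 1 stood apart in its cell type markers. The mean log2 level of 9 T cell markers was 10.94 to 11.16 on the conditional arrays, 8.59 on control replicate 1 and 11.40 on control replicate 2. For 12 epithelial markers it was 7.45 to 7.94, 9.87 and 8.26. Of the 12, 7 had all conditional values below both controls, against 13.1% of all genes. Krt20 and Cdhr5 among them fell (limma, adjusted p under 0.05), as 0.0451% of all genes did. For 12 stromal and endothelial markers the mean was 8.65 to 9.73 on the conditional arrays, 10.83 on control replicate 1 and 9.30 on control replicate 2. Of these 12, 6 were below both controls on every conditional array, against 13.1% of all genes. Macrophage and dendritic cell markers had means of 7.45 to 8.41 against 6.60 and 6.78. Of these 11, 7 were above both controls on every conditional array, against 17.4% of all genes. For granulocyte and mast cell markers the means were 6.83 to 7.04 against 6.09 and 6.11. Here 5 of 7 were above, against 17.4% of all genes, and 1 was below. For 8 B and plasma cell markers the means were 8.87 to 9.68 against 9.93 and 9.51. All conditional values were below both controls in 3 of the 8, against 13.1% of all genes, and 3 differences were above 0. No stromal, macrophage, granulocyte or B cell marker passed an adjusted p of 0.05 (limma). Of 11 immediate-early and heat shock genes, which cell isolation also induces, 10 had all conditional values below both controls, against 13.1% of all genes. Of these 11 genes, 2 passed as lower (limma, adjusted p under 0.05), against 0.0451% of all genes. Their part in the results below was not tested. No call against background was available, so no marker can be called absent. In sorted bulk samples, fewer cells of a type and less RNA per cell cannot be told apart.

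No ribosomal protein gene differed between conditional and control cells beyond the spread of the arrays. None of the 63 passed an adjusted p of 0.05 in limma, where 0.416% of all genes did, and the lowest adjusted p among them was 0.605. None reached an unadjusted p of 0.05 either, against 14.5% of all genes (8.59% higher and 5.91% lower). Differences, conditional minus control on the log2 scale, ran from -0.24 for Rps29 to 0.26 for Rps27l with a median of 0.00012, beside a median of 0.029 over all genes. There were 32 members above 0 and 31 below. The size of the difference, regardless of sign, had a median of 0.089 in the members and 0.16 in all genes.

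The intervals state how large a change these 5 arrays allow. For 61 of the 63 members the 95% confidence interval of the difference lay within 1 either way on the log2 scale, a doubling or halving, as it did for 77.5% of all genes. The exceptions were Rpl12 (-1.29 to 0.99) and Rps27l (-0.65 to 1.17). For 35 of the 63 members (55.6%) it lay within 0.5 either way, against 39% of all genes. The standard error had a median of 0.14 in the members and 0.15 in all genes, so the members were measured about as precisely as the rest.

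**Figure D1:**
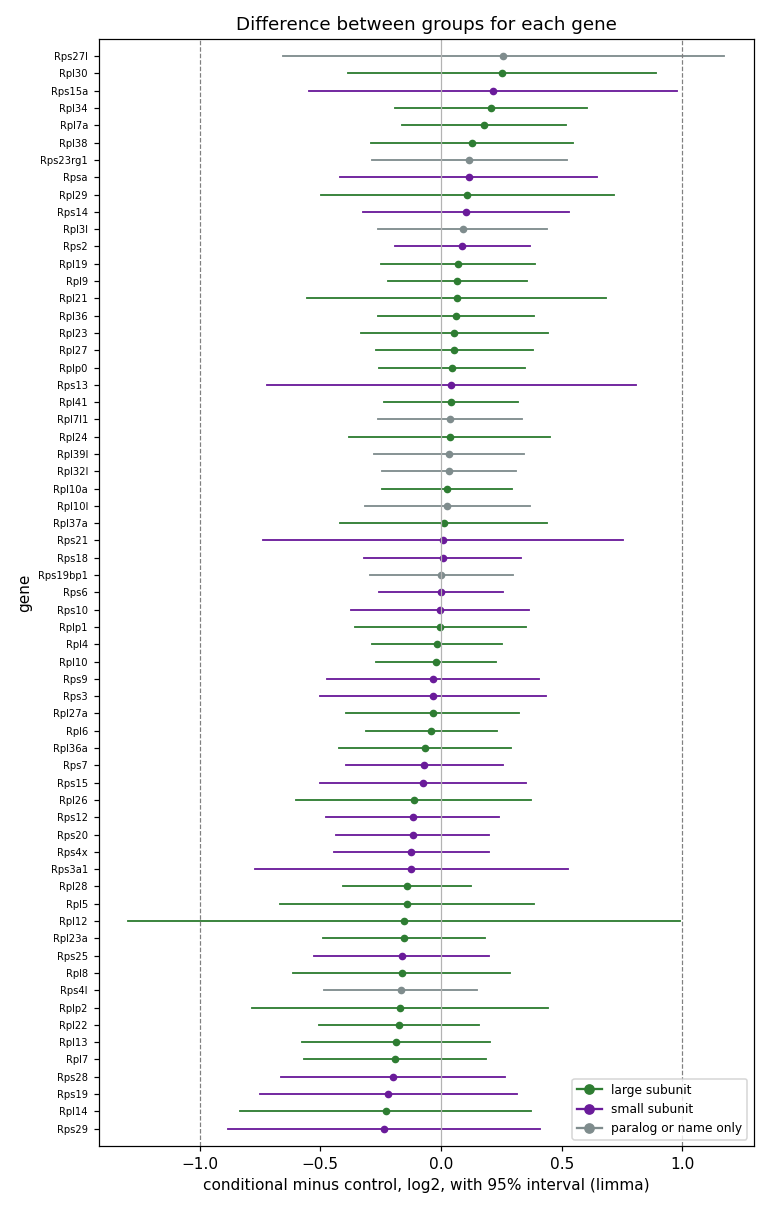
Difference between conditional and control arrays (log2, horizontal axis) for each of the 63 genes, with 95% confidence intervals from limma; green marks large-subunit genes, purple small-subunit genes and grey paralogs or genes that carry only the name. Dashed lines mark a doubling and a halving. All 63 intervals span 0 and all points lie between -0.24 and 0.26.

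Rpl28, a large-subunit protein, was the 1 member whose groups did not overlap, where 30.5% of all genes had groups fully apart. It read 12.84, 12.84 and 12.92 in the conditional replicates and 12.95 and 13.06 in the controls. All conditional values were thus below the controls, and the difference of -0.14 ± 0.104 (SE) did not pass (limma, adjusted p = 0.605). Of its 3 probe sets, 2 had groups that did not overlap.

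Among proteins of the stalk, the flexible arm of the large subunit that recruits elongation factors, Rplp0 read 13.00, 13.02 and 13.14 in the conditional replicates and 12.91 and 13.10 in the controls. Rplp1 read 12.94, 12.88 and 12.96 against 12.76 and 13.10. Their differences were 0.046 (95% interval -0.26 to 0.35) and -0.0037 (-0.36 to 0.35). Rplp2, which pairs with Rplp1, read 7.98 to 8.09 against 7.81 and 8.57, a difference of -0.17 (-0.78 to 0.44). For Rplp1 and Rplp2 every conditional value lay inside the gap between the control arrays. Rpl12, at the base of the stalk, read 9.08, 9.25 and 9.02 in conditional cells, within 0.23 of each other, and 8.52 and 10.02 in the controls. That control gap of 1.51 was the widest of any member, and its difference of -0.15 ± 0.447 (SE) is correspondingly loose.

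Rpl5, which with Rpl11 and the 5S rRNA can bind MDM2 and so links ribosome assembly to p53, read 11.67, 11.94 and 11.83 against 11.67 and 12.24. The difference was -0.14 (limma, adjusted p = 0.83), and the groups overlapped. Rpl10, which joins late in assembly, differed least among arrays, at 12.99, 12.98 and 12.96 against 12.97 and 13.02. Rpl22, without which the αβ T cell lineage of mice fails to develop, read 8.05, 8.07 and 7.99 against 8.06 and 8.36. Only control replicate 2 stood above the other arrays for Rpl22, and the difference was -0.17 (-0.51 to 0.16).

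Rpl38, known for its effect on the translation of Hox mRNAs in mouse embryos, read 12.63, 12.76 and 12.71 against 12.35 and 12.80, a difference of 0.13 (-0.29 to 0.55). The large-subunit genes with the largest positive differences were Rpl30 (0.25), Rpl34 (0.21) and Rpl7a (0.18). Rpl30 read 9.24, 9.43 and 9.25 against 8.67 and 9.44, so that control replicate 1 alone lay below the conditional arrays. Rpl34 read 10.69, 10.82 and 10.76 against 10.34 and 10.75, the same order for control replicate 1. Rpl7a read 7.60, 7.82 and 7.88 against 7.65 and 7.52. None of the 3 passed (limma, adjusted p = 0.718, 0.608 and 0.609).

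The large-subunit genes with the largest negative differences were Rpl14 (-0.23), Rpl7 (-0.19) and Rpl13 (-0.19). Rpl14 read 8.34, 8.85 and 8.74 against 8.61 and 9.13, with conditional replicate 1 lowest and a spread of 0.273 (SD, n = 3) in the conditional group. Rpl7 read 11.18, 11.45 and 11.39 against 11.39 and 11.67. Rpl13 read 11.13, 11.18 and 11.15 against 11.13 and 11.54. In all of these control replicate 2 was the highest array. Over the 33 standard large-subunit genes 16 differences were above 0 and 17 below, with a median of -0.0037.

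In the small subunit, Rps6, the substrate that S6 kinases phosphorylate when mTORC1 is active, read 13.27, 13.35 and 13.32 in conditional cells and 13.28 and 13.35 in control cells. The difference was 0.00012 ± 0.1 (SE), with an interval from -0.26 to 0.26. The highest value of any probe set on an array was 13.60 to 13.69, so this probe set reads close to the top of the scale. Rps3, which lines the path of the incoming mRNA and has also been described as a partner of NF-kB, read 11.51, 11.57 and 11.59 against 11.32 and 11.86. Rpsa, also known as a laminin receptor, read 12.15, 12.25 and 12.34 against 11.82 and 12.44. For both genes the conditional values lay between the controls, and the differences were -0.034 and 0.12.

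Rps19, the gene most often mutated in Diamond-Blackfan anaemia, read 10.76, 10.66 and 10.89 against 10.69 and 11.29, a difference of -0.22 (limma, adjusted p = 0.71). Rps28 read 11.16, 11.37 and 11.35 against 11.25 and 11.74, a difference of -0.20. Rps29 had the most negative difference of the family, at 11.03, 11.15 and 11.14 against 10.94 and 11.74. For all 3 genes at least 1 conditional array was above control replicate 1 and all were below control replicate 2. Rps15a, a component of the body, had the largest positive difference among standard small-subunit genes, 0.21 (-0.55 to 0.98), with readings of 9.54, 9.71 and 9.46 against 8.88 and 9.83.

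Rps19, Rps28 and Rps29 sit in the head of the small subunit. Of 10 measured head proteins 9 had a difference below 0 and the median was -0.12, while 4 of 11 body proteins were below 0 and their median was 0.0099. The sign for the head proteins depended on the control array, since their median was 0.12 with the first control as the only one and -0.30 with the second. The head and body groups were set after the values were known and carry no test, and none of the 21 genes passed (limma, lowest adjusted p = 0.675). With each array centred on its median, every difference shifts up by the same amount, and the median of all genes goes from 0.029 to 0.12.

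Paralogs were measured in part. Rps27l, a p53-induced copy of Rps27, was the member with the largest positive difference, 0.26 ± 0.357 (SE), and read 9.33, 9.59 and 9.38 against 9.76 and 8.59. Its control values lay on opposite sides of the conditional values, with control replicate 1 the highest of the 5 arrays. The remaining copies differed less. Rpl3l, known from muscle, read 5.58 to 5.89 in conditional cells and 5.60 and 5.72 in controls, and Rpl39l and Rpl10l, both known from testis, differed by 0.034 and 0.026.

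Rpl7l1 differed by 0.038, with 9.71 to 9.79 in conditional cells and 9.81 and 9.60 in controls, the order of control arrays seen in Rps27l. Rps4l differed by -0.17 and the X-linked Rps4x by -0.12, with all conditional values of Rps4x at 11.85 to 11.94 against 11.89 and 12.15. Rpl36a differed by -0.066. Their partners Rpl3, Rpl39, Rps27 and Rpl36al, and Rpl22l1, Rpl11, Rpl13a and Rps27a, were not analysed here, so no shift between a standard protein and its copy could be compared for those pairs.

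The members differed together between the control arrays. Control replicate 2 was above control replicate 1 in 59 of 63 members, against 60.1% of all genes, by a median of 0.31 over the members and 0.088 over all genes. Control replicate 2 was the highest of the 5 arrays in 47 of the 63 members, against 22.0% of all genes. Control replicate 1 was the lowest in 39 of the 63, a larger share than the 38.8% of all genes. In 33 members (52.4%) all 3 conditional values fell inside the interval between the controls, which held for 17.9% of all genes. The order was not particular to the members, as it held for 6 of 11 elongation and other TOP mRNA genes (54.5%). Among the 89 other genes with a mean of at least 12 it held for 24.7%. The 4 members with control replicate 1 above control replicate 2 were Rps27l, Rpl7l1, Rps19bp1 and Rpl7a, the first 3 of them among the paralogs and name-only genes. The control gap is a difference between 1 array and another and has no replicate check.

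Conditional arrays were close to each other. The range over the 3 conditional values had a median of 0.13 in the members and 0.22 in all genes. The narrow range was shared by genes like them, with a median of 0.11 in the 89 other genes with a mean of at least 12 and 0.073 in 11 elongation and other TOP mRNA genes. Rpl19, at the rim of the exit tunnel, showed the narrowest range, 0.0099, at readings of 12.72, 12.72 and 12.71, and Rpl14 the widest, 0.52; Rpl19 was chosen after its values were seen. In the 22 members with a mean of at least 12 the conditional range had a median of 0.083 and the control gap one of 0.28. In the 41 dimmer members these were 0.18 and 0.39. The 89 other bright genes had a median absolute difference of 0.17, against 0.058 in the 22 bright members. Groups did not overlap in 37 of those 89 (41.6%) and in 1 of the 22 (4.55%), against 30.5% of all genes.

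**Figure D2:**
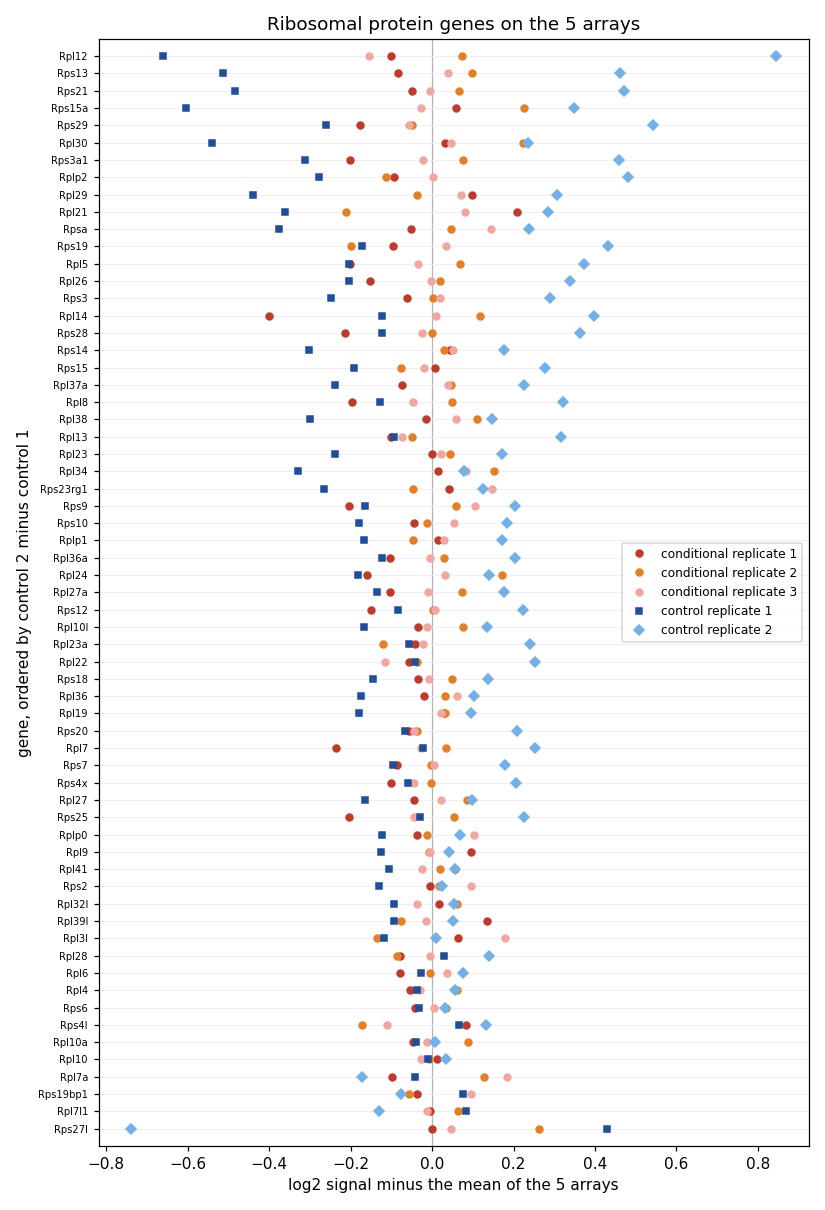
Each of the 63 genes (vertical axis, ordered by control replicate 2 minus control replicate 1) on each array, as its log2 signal minus the mean of the 5 arrays (horizontal axis). Red and orange circles are conditional arrays, the dark square control replicate 1 and the light diamond control replicate 2; the diamond is highest in 47 genes and the square lowest in 39, with the conditional arrays between them in 33.

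Because the controls lay on either side, the direction of the family depended on which was used. Against control replicate 1 alone the median difference of the members was 0.15, and against control replicate 2 alone it was -0.19, while all genes had medians of 0.088 and -0.017. Without control replicate 1, the members with the largest differences of either sign were Rpl12 (-0.91), Rps27l (0.84) and Rps29 (-0.64). Without control replicate 2, they were Rps15a (0.69), Rpl30 (0.64), Rpl12 (0.60), Rps13 (0.53), Rps21 (0.49) and Rpl29 (0.48). Rpl12 had opposite signs in the 2 fits. In each of these fits 1 array stands for the control group and is assumed to vary like the others. T cell markers also ran in the order control replicate 1, conditional, control replicate 2 in 7 of 9 genes, and epithelial markers were higher on control replicate 1 than on control replicate 2 in 11 of 12; their part in the order of the ribosomal genes was not tested.

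Ribosomal protein genes have many processed copies in the genome, and 38 members, or 60.3%, had several probe sets, against 4.79% of all genes. A probe set may therefore read transcripts of a copy as well as of the gene, and these cannot be told apart. Over all 195 probe sets of the members the difference ran from -0.57 to 0.36 with a median of -0.0021, and 193 lay within 0.5 either way. Groups did not overlap in 5 of the 195, or 2.56%, against 30.3% of all probe sets with a single symbol. Control replicate 2 was above control replicate 1 in 188, or 96.4%, against 60.0% of all such probe sets.

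Probe sets of a gene could lie well apart. The 10 of Rpl23a ran from -0.30 to 0.25 and the 6 of Rps25 from -0.16 to 0.34, genes chosen after their values were seen. The 4 of Rps29 gave -0.35 to -0.22, the 4 of Rpl7 gave -0.34 to -0.15 and the 9 of Rpl13 gave -0.53 to -0.0067, all below 0. The 5 of Rps28 gave -0.57 to -0.035, also below 0. The 5 of Rpsa gave -0.0069 to 0.20 and the 7 of Rps6 gave -0.0021 to 0.27, with the brightest of Rps6 at 0.00012. Of 29 genes with 3 or more probe sets, 8 had all differences below 0, 5 had all above 0 and the others had both signs. Probe sets of 1 gene share arrays and sequence and are not replicates.

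**Figure D3:**
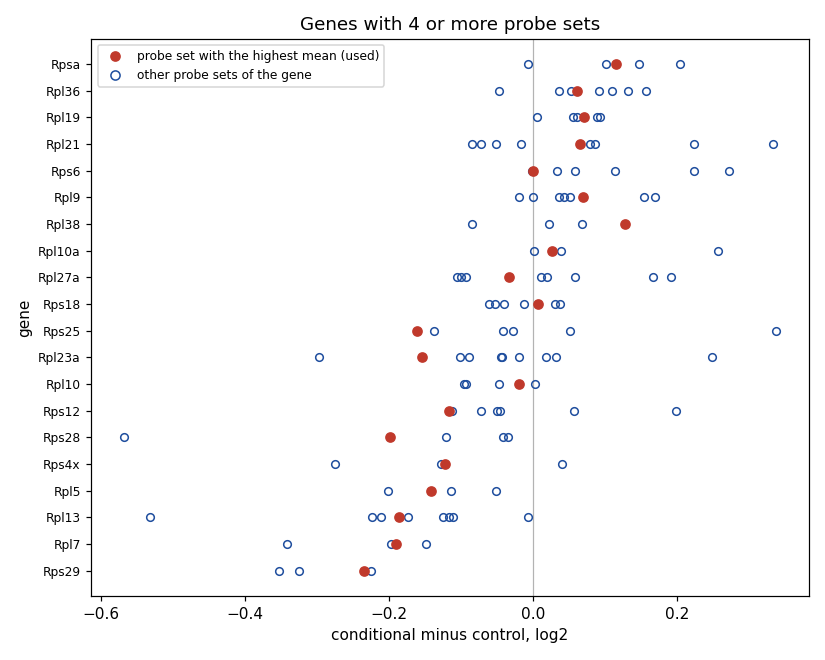
Difference between conditional and control arrays (log2, horizontal axis) for every probe set of the 20 genes with 4 or more of them; filled red points are the probe sets with the highest mean, used elsewhere, and open blue circles the others. Probe sets of Rps29, Rpl7, Rpl13, Rpl5 and Rps28 all lie below 0, and those of most other genes spread to either side.

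The promoter table held 51 of the 63 members. A C within 3 bases of an annotated start followed by at least 4 pyrimidines, the rule behind the capitals in the printed sequences, was found in 17 of them, or 33.3%, against 13.5% of 27025 genes. With the C at the start itself the shares were 19.6% and 3.01%. The 17 members with the tract had a median difference of 0.007 and a median of 0.37 for control replicate 2 minus control replicate 1. The 34 without it had -0.0079 and 0.29, and neither median difference between the groups lay away from 0. The motif CCGGAAG, which ETS family factors bind, lay on either strand within 250 bases before to 50 after the start in 19 members, or 37.3%, against 9.93% of all genes. Members holding it had a median difference of 0.007 and those without it -0.0079. Annotated starts can differ from those used in these cells, and a gene with several starts counted where any start matched.

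Other genes of protein synthesis came from lists drawn up from textbook knowledge, and none of their members passed an adjusted p of 0.05. Fau, which encodes a small-subunit protein as a fusion, read 12.75, 12.78 and 12.77 against 12.53 and 12.82, again inside the control gap. Elongation factors and other TOP mRNA genes had a median of 0.027 over 11 genes, 0 with groups that did not overlap, and control replicate 2 above control replicate 1 in 9. Their lowest p belonged to Eef1b2 (-0.15), Btf3 (0.12) and Eif5a (0.16).

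The mitochondrial ribosomal proteins, which build the separate ribosome of that organelle, had more genes with groups fully apart than the cytosolic ones, 33 of 77 (20 higher, 13 lower) against 1 of 63, where the share of all genes is 30.5%. Their median was 0.052, and 13 (16.9%) had an unadjusted p under 0.05, against 14.5% of all genes. Mrps21 read 10.69, 10.19 and 10.36 against 9.66 and 9.76, and Mrpl40 and Mrps28 differed by 0.36 and -0.36. In the mitochondrial list control replicate 2 minus control replicate 1 had a median of 0.042, against 0.31 in the cytosolic genes. Regardless of sign, the control gap had a median of 0.17 in the mitochondrial list and 0.32 in the cytosolic genes. The difference between the lists was not tested.

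Genes of ribosome assembly and RNA polymerase I had a median of 0.10 over 50 genes, and 16 had groups that did not overlap, 9 higher and 7 lower, near the 30.5% of all genes. Bop1, which processes large-subunit rRNA, read 9.72, 9.82 and 9.86 against 9.19 and 9.40, a difference of 0.50 (limma, adjusted p = 0.175). Nop58, a core protein of the box C/D particles that methylate rRNA, read 8.43, 8.83 and 8.30 against 9.35 and 9.09, a difference of -0.70 (limma, adjusted p = 0.221). Polr1c, shared by RNA polymerases I and III, differed by 0.33. Initiation factors had a median of 0.10 over 28 genes with 10 fully apart, 7 higher and 3 lower. That share of 35.7% is also near the 30.5% of all genes. The lowest p in the list belonged to Eif2b5 (0.37), Eif5b (0.32) and Eif3b (0.32).

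Of 20 genes of mTORC1 and TOP control, 6 (30.0%, against 30.5% of all genes) had groups fully apart, 3 in each direction, with a median of 0.036. Rptor, the subunit through which mTORC1 recognises its substrates, read 9.48, 9.52 and 9.53 against 8.88 and 9.11, a difference of 0.52 (limma, adjusted p = 0.157). Tsc2 and Tsc1, which together restrain mTORC1, differed by -0.41 and 0.26. Of 9 genes of p53 surveillance, which responds to free ribosomal proteins, 3 had all conditional values above the controls, where 17.4% of all genes did. The other members did not share that direction, as 5 of the 9 differences were below 0, among them Phlda3 (-0.87) and Eda2r (-0.64), and the median was -0.061. Ccng1, Zmat3 and Mdm2, all p53 targets, differed by 0.31, 0.47 and 0.37 (limma, adjusted p = 0.324, 0.327 and 0.347).

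**Figure D4:**
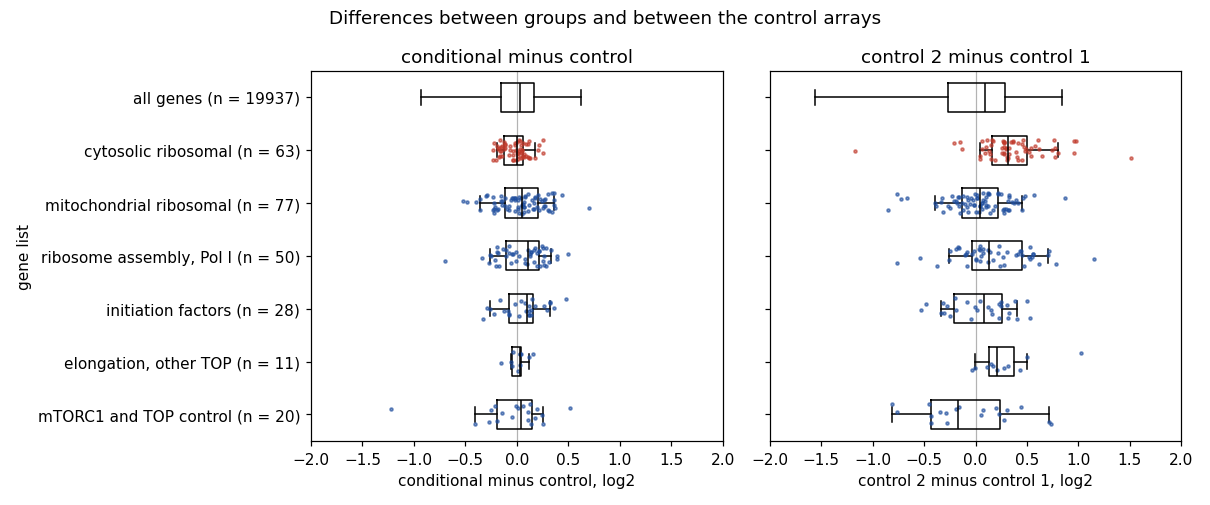
Difference between conditional and control arrays (left) and between control replicates 2 and 1 (right), both log2, for all genes and 6 gene lists. Boxes show quartiles with the median, whiskers the 5th to 95th percentiles and points the genes of a list. The axes run from -2 to 2, with 1 point of the mTORC1 list outside the right panel; the cytosolic ribosomal genes centre on 0.00012 at left and on 0.31 at right.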

How the data were processed

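RNA was labelled with a whole-transcript kit and hybridised to Affymetrix arrays, with an RNA integrity number of at least 9.2, per the labels' protocols. The deposited values are log2 signals, and the submitters' processing notes name RMA and oligo as the tools behind them. RMA normalizes the arrays together, which removes a global shift in RNA content and compresses dim genes. The sources used here give neither tool versions nor a genome build. Of 34760 probe sets the platform annotation, an older release, gave 1 symbol to 21640, several to 1321 and none to 11799. The array columns differ in every pair. Arrays carry no depth, and their number limits the precision.

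Conditional and control arrays were compared over all 19937 genes with limma 3.58.1 in R 4.3.3 (lmFit, eBayes, no covariate), with Benjamini-Hochberg adjustment over all genes. The fit had 3 residual degrees of freedom, to which eBayes contributed 2.10 more. The procedure was tested on 10 sets of simulated arrays. In this comparison it called 0% of the genes given a log2 change of 0.5, 13% of the genes given a log2 change of 1 and 73.4% of those given 2, and the 95% intervals held the true value for 93.8%, 94.6% and 93% of these. The simulated arrays had the same variance in both groups. In the members the control gap had a median size of 0.32 and the conditional range one of 0.13. The simulated coverage need not hold for their intervals. Medians and counts of members carry no test. Members, gene lists, role groups and motifs were chosen with earlier results of these data known. The genes named were the largest differences and smallest p among members, fixed members by role, paralogs and, per list, the 3 with the smallest p; others are named where a count called for them. Alternatives covered normalization, dim genes, probe set choice, variance model, array weights, the replicate number and each array left out.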

Additional observations from a re-analysis of the deposited data

How the results depend on the processing

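None of the 63 members passed the threshold under another quantile normalization, median centring, either filter on dim genes, the mean of all probe sets, a variance trend, robust variances, array weights, a threshold of 0.1 or the standard proteins alone. Leaving out each array in turn gave 0 to 6 members, the latter without control replicate 2. The median difference ranged from -0.19 to 0.15 when an array was left out. Both ends came from dropping a control, and their signs are opposite, so its direction is not settled. The SD of the array medians (0.213) cannot judge this range, because it includes the same gap between the control medians (11.32 and 11.80). The median difference was 0.0075 after quantile normalization and 0.094 after median centring. The count of members with groups that do not overlap was 3 after quantile normalization, 3 after median centring and 0 with the mean of all probe sets. For all genes the shares were 32.6%, 31.5% and 30.4%. With an array left out the count of members ran from 1 to 51. It was 4 without conditional replicate 1, 5 without conditional replicate 2, 51 without control replicate 1 and 42 without control replicate 2, where all genes gave 41%, 44.4%, 59.4% and 75.4%; fewer arrays make groups more often fully apart. Deviations of arrays with equal replicate numbers correlated at 0.40 for number 1 and -0.29 for number 2. The differences between replicates 1 and 2 in the 2 groups correlated at 0.089. With 2 controls all of these rest on the same control contrast, so they cannot decide whether the numbers pair the arrays. With the replicate number as a block, over the 4 arrays whose numbers both groups share, the median was -0.0073, 0 members passed and 69 genes passed in all against 83; Rps6 was at -0.0028. Over all genes, where 83 passed, the count was 48 after quantile normalization, 13 with array weights, 374 at a threshold of 0.1 and 0 without any 1 conditional array.

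Differences that changed sign did so mainly with a control array left out, as must happen where the conditional mean lies between the 2 controls. Why the control arrays differ was not tested. Leaving out each array gave -0.64 to 0.17 for Rps29, -0.49 to 0.032 for Rpl14, -0.52 to 0.085 for Rps19, -0.44 to 0.044 for Rps28, -0.39 to 0.019 for Rpl13, -0.33 to 0.84 for Rps27l, -0.13 to 0.64 for Rpl30, -0.26 to 0.69 for Rps15a and -0.096 to 0.35 for Rpl38. It gave -0.051 to 0.14 for Rplp0, -0.17 to 0.17 for Rplp1, -0.55 to 0.21 for Rplp2, -0.91 to 0.60 for Rpl12, -0.43 to 0.15 for Rpl5, -0.032 to 0.033 for Rps6, -0.30 to 0.24 for Rps3, -0.042 to 0.0019 for Rpl10 and -0.19 to 0.42 for Rpsa. It gave -0.038 to 0.11 for Rpl39l, -0.23 to 0.097 for Rpl36a, -0.069 to 0.15 for Rpl7l1, -0.13 to 0.18 for Rpl10l, -0.26 to 0.011 for Rps4x, -0.060 to 0.24 for Fau, -0.25 to 0.15 for Ppp3r1, -0.31 to 0.0043 for Eef1b2 and -0.092 to 0.41 for Eif5a. Without a change of sign, values moved by over 1.5 times for Tsc2 (-0.64 to -0.18), Tsc1 (0.16 to 0.35), Zmat3 (0.27 to 0.67), Mdm2 (0.20 to 0.54), Eif3b (0.20 to 0.44), Btf3 (0.019 to 0.22), Rpl34 (0.0057 to 0.41), Rpl22 (-0.32 to -0.027), Rpl7 (-0.33 to -0.053), Rpl28 (-0.20 to -0.086), Rpl7a (0.11 to 0.26) and Rpl3l (0.018 to 0.18). Rplp1 turned to 0.052 after quantile normalization, 0.090 after median centring, 0.044 with the mean of probe sets and 0.013 with array weights. Rpl10 turned to 0.021 and 0.074 under the first 2 of these, and Rpl39l to -0.0063 under the first. After median centring Rps3 was at 0.060, Rpl36a at 0.027 and Ppp3r1 at 0.042.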
